A study of Mus musculus with 6 samples.

Results

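The genes described here encode 7 enzymes of cholesterol synthesis, Hmgcs1, Idi1, Fdps, Fdft1, Sqle, Lss and Cyp51, taken in the order in which they act. They were matched by symbol, and all 7 were found among the 15483 genes with a value and passed the filter of a mean of at least 1 FPKM (fragments per unit of transcript length and of library depth), as did 10666 genes in all. The libraries came from regulatory T cells (Tregs) sorted from the bone marrow of wild-type mice. There were 3 libraries from mice 3 months after irradiation, called IR here as in the labels, and 3 libraries from control mice that were not labelled as irradiated. In both groups the sort kept Foxp3-positive cells that carried CD4 and CD3 and lacked NK1.1. All mice were matched for background and kept free of specific pathogens, and their age, their sex and the radiation dose were not given in the sources used here.

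Cholesterol synthesis starts from acetyl-CoA in the cytosol and passes through mevalonate to isoprenoid diphosphates. Farnesyl diphosphate is the branch point, since it can be attached to proteins, lengthened for ubiquinone and dolichol, or joined head to head into squalene for sterols. When sterols in the endoplasmic reticulum run low, SREBP transcription factors are released from their membrane anchor and switch on most genes of the route. In T cells the mevalonate route is known to be needed for proliferation and for the suppressive function of Tregs.

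The libraries held transcripts of other marrow cells beside those of Tregs. The granulocyte transcripts S100a8 and S100a9 led all other genes, with S100a8 at 39026 ± 427 FPKM in IR and 25283 ± 1249 FPKM in control libraries (SD, n = 3 each). The Treg factor Foxp3 stood at 12.6 ± 0.795 FPKM in IR and 22.6 ± 1.93 FPKM in control libraries, and the T cell receptor gene Cd3g at 44.4 ± 2.22 FPKM in IR and 89.0 ± 7.25 FPKM in control libraries. In such a mixture, fewer cells of a type and less RNA per cell cannot be told apart, so a level below is one of the whole library and not of Tregs alone. The depth in reads is unknown. Relative depth, read from the steps between low values, was between 81.7% and 92.8% of that of control replicate 1 in IR libraries and between 98.6% and 103% in the other control libraries.

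Fdps, Fdft1 and Sqle rose in IR libraries, and Hmgcs1, Idi1, Lss and Cyp51 did not pass the test. The fold change of Fdps was the most precise, at 1.63 times the control mean, while the calls of Fdft1 and Sqle were lost in most fits with 1 library removed. By limma, with p-values adjusted over all tested genes and a threshold of 0.05, 3 of 7 genes (42.9%) were higher and 0 were lower, and at an unadjusted p under 0.05 the counts were 5 and 0. Over all tested genes 6.29% were called higher and 10.3% lower. The median log2 change, IR minus control on log2(FPKM + 1), was 0.46 over the 7 genes and -0.02 over all tested genes. In 6 of the 7 genes the IR values all lay above the control values, which held for 13.5% of all tested genes. The 7 genes were chosen with earlier results of these data known, so their count was not tested against other genes.

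The levels of the genes differed widely within every library. Fdps stood highest, at 62.5 ± 3.98 FPKM in IR and 38.3 ± 1.53 FPKM in control libraries (SD, n = 3 each), and made up 63.3% ± 2.37 of the summed FPKM of the 7 genes in IR and 57.6% ± 1.18 in control libraries. In IR libraries the order below it was Hmgcs1, Sqle, Cyp51, Idi1, Fdft1 and Lss. There the values of Idi1 overlapped those of Fdft1, those of Fdft1 overlapped those of Lss, and other neighbours in the order did not overlap. In control libraries the order was Fdps, Hmgcs1, Cyp51, Sqle, Idi1, Fdft1 and Lss, and among neighbours the values overlapped for Cyp51 and Sqle, which had means of 5.53 FPKM each. The summed level of the 7 genes was 98.7 ± 2.66 FPKM in IR and 66.4 ± 3.40 FPKM in control libraries. Without Fdps the sum was 36.2 ± 1.33 FPKM in IR and 28.2 ± 2.04 FPKM in control libraries.

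**Figure D1:**
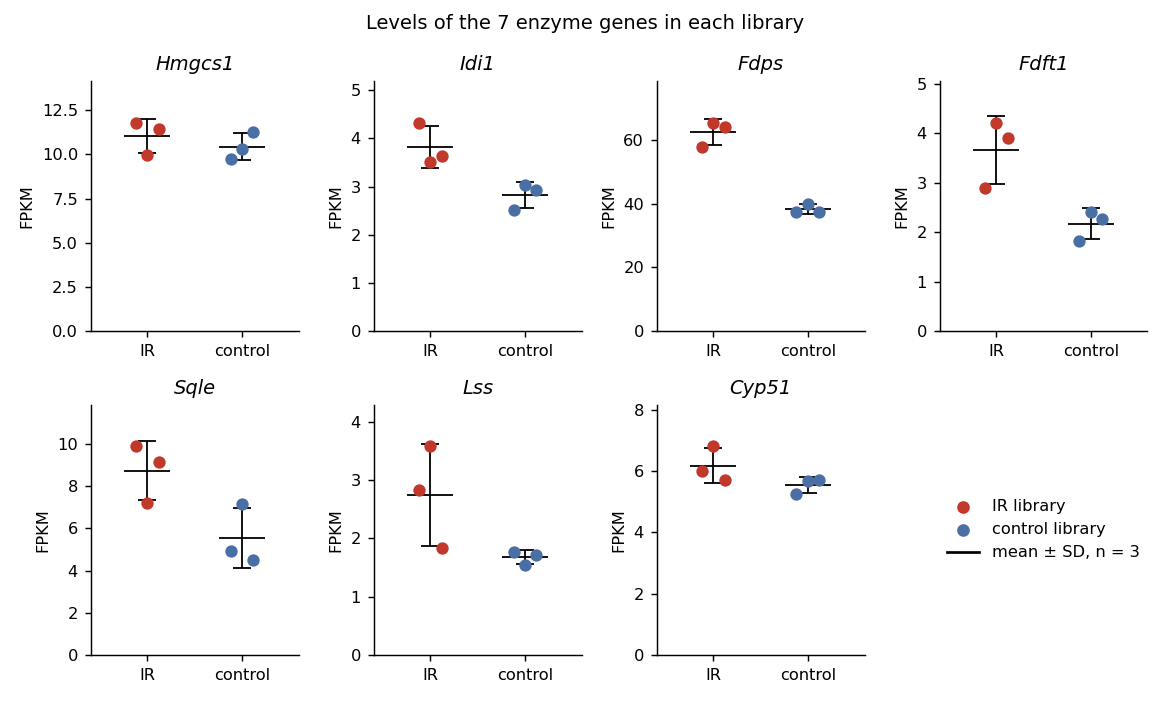
Level in FPKM of each of the 7 genes, with 1 panel per gene in the order of the route. Points are single libraries (IR left, control right), and the bar and whiskers are the mean and SD of 3 libraries. The groups lie furthest apart for Fdps, at 57.9 to 65.4 FPKM in IR and 37.3 to 40.0 FPKM in control libraries, and overlap for Hmgcs1.

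RefSeq (GRCm38.p6) gave a promoter sequence for 4 of the 7 genes. The 250 bases before the RefSeq start are shown for these, since SREBPs and their partners act near the start of genes of this route. The RefSeq start differs from that of the GENCODE genes whose positions are given further below. The Idi1, Lss and Cyp51 windows run into the GENCODE gene, and the Hmgcs1 window ends before it. Capitals mark the sterol element TCACNCCAC, its looser form TCACNNCA and the CCAAT box bound by NF-Y, each searched on both strands, so that ATTGG is a CCAAT box on the other strand. The looser form overlaps the sterol element and was written after the sequences were read.
Hmgcs1, chr13:119690101-119690350, plus strand: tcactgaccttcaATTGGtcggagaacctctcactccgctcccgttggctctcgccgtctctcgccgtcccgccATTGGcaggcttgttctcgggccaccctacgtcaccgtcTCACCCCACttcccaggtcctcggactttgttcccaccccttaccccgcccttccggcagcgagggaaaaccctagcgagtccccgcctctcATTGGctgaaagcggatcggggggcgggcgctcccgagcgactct
Idi1, chr13:8885356-8885605, plus strand: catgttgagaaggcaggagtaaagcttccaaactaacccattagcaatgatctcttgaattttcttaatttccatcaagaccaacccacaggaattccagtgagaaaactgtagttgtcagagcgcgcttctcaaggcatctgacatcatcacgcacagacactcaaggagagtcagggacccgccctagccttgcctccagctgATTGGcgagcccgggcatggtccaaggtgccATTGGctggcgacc
Lss, chr10:76531355-76531604, plus strand: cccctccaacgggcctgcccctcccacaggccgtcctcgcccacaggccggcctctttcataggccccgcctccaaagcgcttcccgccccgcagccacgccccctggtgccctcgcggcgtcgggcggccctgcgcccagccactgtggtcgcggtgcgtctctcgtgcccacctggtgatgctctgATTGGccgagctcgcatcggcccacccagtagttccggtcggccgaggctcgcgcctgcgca
Cyp51, chr5:4104698-4104947, minus strand: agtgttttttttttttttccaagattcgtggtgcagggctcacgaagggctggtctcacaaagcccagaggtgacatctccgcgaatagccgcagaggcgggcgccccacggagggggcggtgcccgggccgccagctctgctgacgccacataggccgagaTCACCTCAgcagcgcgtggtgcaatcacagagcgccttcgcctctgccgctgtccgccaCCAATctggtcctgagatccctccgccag

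Hmgcs1 held the sterol element once, as TCACCCCAC, beginning 137 bases before the RefSeq start, and 1.05% of the 32851 promoters of the same length held it. Cyp51 held the looser form, as TCACCTCA, beginning 88 bases before the RefSeq start, and 11.4% of promoters held it. Neither form was found in the Idi1 and Lss windows. CCAAT boxes numbered 3 in Hmgcs1, 2 in Idi1, 1 in Lss and 1 in Cyp51, against 33.8% of promoters with at least 1. Those of Idi1 and Cyp51 lie inside the GENCODE gene. GC boxes (GGGCGG), bound by Sp1, numbered 2, 1, 2 and 1 in the same order, and 32.7% of promoters had at least 1. The GC box of Idi1 also lies inside the GENCODE gene. A match is a description of the letters and shows no binding.

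Hmgcs1 encodes the cytosolic HMG-CoA synthase, which makes the precursor of mevalonate (chromosome 13, 119690379 to 119708260, plus strand, GENCODE M21 on GRCm38, 520 residues). It had 11.8, 9.95 and 11.4 FPKM in IR replicates 1, 2 and 3, against 9.76, 10.3 and 11.2 FPKM in control replicates 1, 2 and 3. The groups overlapped, with IR replicate 2 below 2 of the control values. The log2 change was 0.07 ± 0.10 (SE) with a 95% interval from -0.15 to 0.30 and a limma adjusted p of 0.687, so that a rise up to the upper bound could not be told from none at this precision.

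Idi1 encodes the isomerase that turns isopentenyl diphosphate into dimethylallyl diphosphate, the unit on which isoprenoid chains are started (chromosome 13, 8885501 to 8892451, plus strand, 283 residues). Its level was 4.32, 3.52 and 3.63 FPKM in the IR replicates, against 2.52, 3.02 and 2.93 FPKM in the control replicates. All IR values lay above all control values, yet the log2 change of 0.33 ± 0.14 (95% interval 0.03 to 0.63) did not pass (limma adjusted p = 0.128). In the annotation 4 processed pseudogenes on other chromosomes match at least 90% of an Idi1 transcript stretch of 200 bases or more. One of them, Gm13502 on chromosome 2, is identical to it over 684 bases. These copies were not analysed here, and how their reads were assigned is not given in the sources used here.

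Fdps encodes farnesyl diphosphate synthase, which builds geranyl and then farnesyl diphosphate and is the enzyme that nitrogen-containing bisphosphonate drugs inhibit (chromosome 3, 89093588 to 89101959, minus strand, 353 residues). It had 57.9, 65.4 and 64.1 FPKM in the IR replicates, against 37.4, 40.0 and 37.3 FPKM in the control replicates. The lowest IR value lay well above the highest control value. The log2 change was 0.69 ± 0.07 (95% interval 0.54 to 0.84, limma adjusted p = 3.69e-05), and it lay between 0.66 and 0.74 when any 1 library was left out, with the call kept in 6 of 6 such fits. Fdps also has 5 processed pseudogenes in the annotation, with 91.1% to 98.9% identity over at least 1060 bases, and shares 929 transcript bases with Gm43738 on the same strand. A part of its reads may have been counted elsewhere, and the level is uncertain to that extent.

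Fdft1 encodes squalene synthase, which commits farnesyl diphosphate to sterols (chromosome 14, 63145150 to 63179578, minus strand, 416 residues). Its level was 2.89, 4.21 and 3.90 FPKM in the IR replicates, against 1.82, 2.42 and 2.27 FPKM in the control replicates. Groups did not overlap, although IR replicate 1 came close to control replicate 2. The log2 change was 0.55 ± 0.16 (95% interval 0.20 to 0.90, limma adjusted p = 0.0359). Of the 6 fits with a library removed 5 did not pass: the adjusted p was 0.114 without IR replicate 2, 0.0996 without IR replicate 3, 0.132 without control replicate 1, 0.0657 without control replicate 2 and 0.0656 without control replicate 3. Without the filter on low genes the adjusted p was 0.0869.

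Fdft1 also lies tail to tail with Ctsb, a lysosomal protease gene on the opposite strand, and their annotated transcripts share 774 bases. Ctsb stood at 274 FPKM on average in IR and 549.5 FPKM in control libraries, the opposite direction to Fdft1. The libraries were made with a kit that keeps strand, per the labels' protocols, but whether strand was used in counting is not given in the sources used here. Reads from the shared stretch could not be told apart without it. A processed pseudogene on the same chromosome, Gm6781, is 97.4% identical to Fdft1 over 1249 bases and was not analysed here.

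Sqle encodes squalene epoxidase, which adds the oxygen that sterols keep and is known as a second control point of the route (chromosome 15, 59315077 to 59331192, plus strand, 572 residues). It had 9.89, 7.19 and 9.16 FPKM in the IR replicates, against 4.94, 7.16 and 4.49 FPKM in the control replicates. IR replicate 2 and control replicate 2 were almost equal, and the other libraries lay far apart. The log2 change was 0.59 ± 0.17 (95% interval 0.22 to 0.95, limma adjusted p = 0.0327). Of the 6 fits with a library removed 4 did not pass: the adjusted p was 0.0991 without IR replicate 1, 0.0930 without IR replicate 3, 0.115 without control replicate 1 and 0.106 without control replicate 3. It did not pass either without the filter on low genes (0.109), without a trend in the variance (0.0668), with array weights (0.0522) or with the replicate number as a block (0.0647).

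Lss encodes lanosterol synthase, which folds oxidosqualene into the ring system of sterols (chromosome 10, 76531588 to 76557138, plus strand, 733 residues). Its level was 2.83, 3.58 and 1.83 FPKM in the IR replicates, against 1.77, 1.55 and 1.72 FPKM in the control replicates. The control values were close together, while IR replicate 3 lay only just above them. The log2 change was 0.46 ± 0.18 (95% interval 0.05 to 0.86) and did not pass (limma adjusted p = 0.121). The value depended on single IR libraries: without IR replicate 2 it was 0.30 (adjusted p = 0.339), and without IR replicate 3 it was 0.64 and passed (adjusted p = 0.0293).

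Cyp51 encodes lanosterol demethylase, the cytochrome P450 enzyme of the route (chromosome 5, 4081145 to 4104746, minus strand, 503 residues). It had 5.998, 6.80 and 5.70 FPKM in the IR replicates, against 5.24, 5.67 and 5.70 FPKM in the control replicates. IR replicate 3 and control replicate 3 were nearly the same, so the groups were separated by less than the spread within either. The log2 change was 0.13 ± 0.12 (95% interval -0.13 to 0.39, limma adjusted p = 0.505). Its gene shares 166 bases with Akap9 on the opposite strand, which stood at 4.45 FPKM on average in IR and 4.53 FPKM in control libraries. Antisense or unclassified transcripts annotated across Hmgcs1, Idi1 and Lss were not analysed here.

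**Figure D2:**
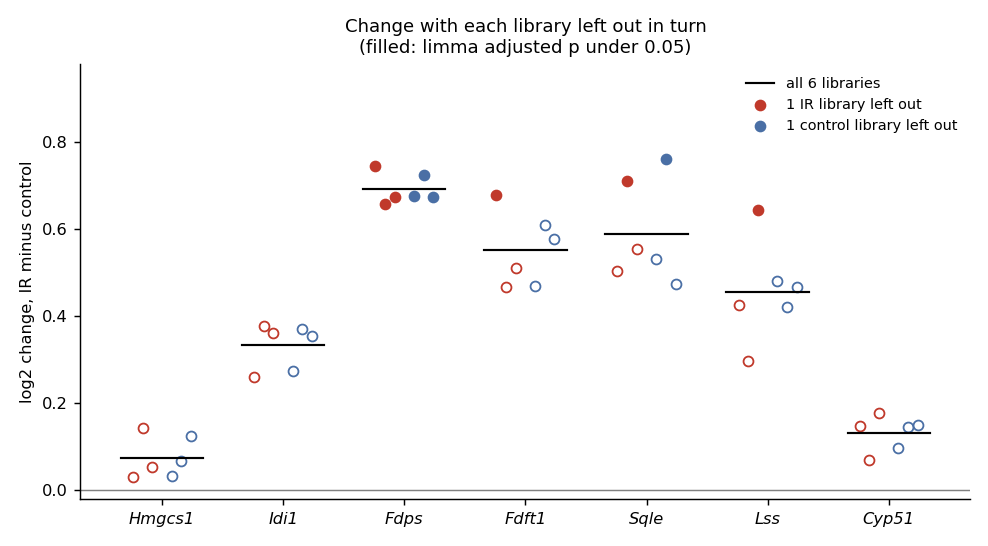
Log2 change of each gene, IR minus control on log2(FPKM + 1), with all 6 libraries (line) and with 1 IR or 1 control library left out (points, filled where the limma adjusted p was under 0.05). Points for Fdps stay between 0.66 and 0.74 and are filled throughout, while 1 of 6 points is filled for Fdft1, 2 of 6 for Sqle and 1 of 6 for Lss.

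The genes did not vary together in every library. Centred on each gene's mean over the 6 libraries, the average of the 7 genes on log2(FPKM + 1) was 0.21, 0.23 and 0.16 in the IR replicates and -0.28, -0.12 and -0.20 in the control replicates. IR replicate 2 was the highest library for Fdps, Fdft1, Lss and Cyp51, and the lowest of the IR libraries for Hmgcs1, Idi1 and Sqle. In control replicate 2 Sqle was at 0.05 on this centred scale, while the other 6 genes were at or below -0.04.

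Ratios between successive enzymes differed between the groups by -0.50 to 0.35 in their means on the log2 scale. The log2 ratio of Idi1 to Hmgcs1 in FPKM was -1.45, -1.50 and -1.65 in the IR replicates, against -1.95, -1.77 and -1.94 in the control replicates, so that all IR ratios lay above all control ratios. The ratio of Fdft1 to Fdps, on either side of the branch at farnesyl diphosphate, was -4.11 ± 0.19 in IR and -4.15 ± 0.18 in control libraries (log2, SD, n = 3 each) and overlapped. The difference in means was widest for Cyp51 to Lss, at 1.22 ± 0.37 in IR and 1.72 ± 0.15 in control libraries, although IR replicate 3, at 1.64, lay within the control values. The ratio of Fdps to Idi1 was 4.03 ± 0.25 in IR and 3.76 ± 0.12 in control libraries and also overlapped. For Sqle to Fdft1 the ratio was 1.26 ± 0.50 in IR and 1.33 ± 0.31 in control libraries, and for Lss to Sqle it was -1.71 ± 0.66 in IR and -1.69 ± 0.45 in control libraries, with overlap in both. The ratios are given as a description and were not tested.

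The 5 genes outside all lists whose pattern was nearest to the average of the 7 were Phkg2, Slc25a24, Pag1, Anxa11 and Megf9. Nearness was the mean absolute difference of centred log2(FPKM + 1) values over the 6 libraries, among 10248 genes, and ran from 0.014 for Phkg2 to 0.033 for Megf9. Of the enzymes themselves Idi1 was nearest to their average (0.071) and Sqle furthest from it (0.210). Phkg2, a catalytic subunit of phosphorylase kinase, stood at 11.3 ± 0.375 FPKM in IR and 8.19 ± 0.637 FPKM in control libraries. Slc25a24, a carrier of adenine nucleotides in mitochondria, stood at 36.8 ± 1.06 FPKM in IR and 27.3 ± 0.918 FPKM in control libraries.

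Of 15 other enzymes and accessory proteins of the route, 4 rose, among them Mvk, Msmo1 and Hsd17b7, and 1 fell, Mvd. The median log2 change of these 15 genes was 0.13. Msmo1, the sterol methyl oxidase that acts after Cyp51, had 15.3, 15.2 and 16.6 FPKM in the IR replicates, against 11.8, 10.8 and 11.2 FPKM in the control replicates. The groups were well apart, and it rose by 0.45 ± 0.09 on the log2 scale (limma adjusted p = 0.00537). Hsd17b7, a ketosteroid reductase of the same stretch of the route, had 2.66, 2.44 and 2.82 FPKM in the IR replicates, against 1.49, 1.17 and 1.23 FPKM in the control replicates. Its groups did not overlap either, and it rose by 0.66 ± 0.14 (limma adjusted p = 0.00914). The calls of Msmo1 and Hsd17b7 held in all 6 fits with a library removed.

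Mvk and Mvd, which act before Idi1 on mevalonate and on mevalonate diphosphate respectively, moved in opposite directions. Mvk encodes mevalonate kinase and had 6.98, 7.96 and 6.13 FPKM in the IR replicates, against 4.48, 3.66 and 5.24 FPKM in the control replicates (log2 change 0.56 ± 0.14, limma adjusted p = 0.0223). Mvd encodes mevalonate diphosphate decarboxylase and had 7.47, 8.70 and 7.67 FPKM in the IR replicates, against 14.5, 13.6 and 8.76 FPKM in the control replicates (log2 change -0.55 ± 0.16, adjusted p = 0.0402). Control replicate 3 lay close to the IR values of Mvd. The Mvk call was lost with the replicate block (adjusted p = 0.0505), without a filter on low genes (0.0706), without IR replicate 1 (0.0509) or 2 (0.0777) and without control replicate 1 (0.0622) or 2 (0.0943). The Mvd call was lost without IR replicate 1 (0.0958), 2 (0.0541) or 3 (0.101), without control replicate 1 (0.163) or 2 (0.147), and with median-of-ratios scaling (0.0577) or quantile normalization (0.0718), and without a filter (0.128) or a trend (0.0897).

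Of 7 genes of the SREBP machinery, which carries the sterol signal to these enzymes, Srebf2 rose and 0 fell, with 1 and 0 at an unadjusted p under 0.05. Srebf2 encodes the SREBP most tied to cholesterol synthesis and had 35.4, 36.4 and 35.9 FPKM in the IR replicates, against 30.7, 29.9 and 31.4 FPKM in the control replicates. The groups were apart but the difference was small, at a log2 change of 0.22 ± 0.06 (limma adjusted p = 0.0359). Its call was lost with the replicate block (adjusted p = 0.0689), without a trend in the variance (0.0792), without IR replicate 1 (0.0683), 2 (0.0944) or 3 (0.0814) and without control replicate 1 (0.0962) or 2 (0.128). Mbtps1, a protease that frees the SREBPs, had a log2 change of -0.08 ± 0.08 (adjusted p = 0.588). SREBP activity depends on cleavage and was not measured.

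Of 14 genes of cholesterol uptake and handling 12 were tested, and 2 rose and 2 fell, with a median log2 change of -0.08. Lrp8, a receptor for reelin and apolipoprotein E, had 6.26, 7.49 and 7.61 FPKM in the IR replicates, against 4.12, 5.08 and 5.55 FPKM in the control replicates (log2 change 0.46 ± 0.13, limma adjusted p = 0.0377). The Lrp8 call was lost without IR replicate 2 (adjusted p = 0.104) or 3 (0.109), without control replicate 1 (0.144) or 2 (0.0860), and without a filter on low genes (0.0912). The genes that fell act in the lysosome: Lipa encodes the acid lipase that frees cholesterol from its esters, and Npc2 a protein that carries it to the membrane. Lipa stood at 24.1 ± 0.491 FPKM in IR and 43.4 ± 2.41 FPKM in control libraries (log2 change -0.82 ± 0.07, adjusted p = 1.14e-05). Npc2 stood at 92.3 ± 2.58 FPKM in IR and 146.4 ± 11.8 FPKM in control libraries (log2 change -0.66 ± 0.06, adjusted p = 3.43e-05). Macrophages are rich in both transcripts, and 9 of 9 macrophage markers fell in the same libraries. The part of macrophages in these changes was not tested.

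Neighbouring routes did not pass. Of 11 genes of the other branches from isoprenoids, which prenylate proteins or make ubiquinone and dolichol, 0 rose and 0 fell by limma, also at an unadjusted p under 0.05, with a median log2 change of 0.00. Fnta, a subunit of protein farnesyltransferase, stood at -0.10 ± 0.10 and Dhdds, of dolichol synthesis, at 0.17 ± 0.09 on that scale. Of 9 tested SREBP targets of fatty acid synthesis 0 rose and 0 fell, with 1 and 0 at an unadjusted p under 0.05 and a median of 0.06. Acly, which supplies cytosolic acetyl-CoA to both routes, stood at -0.14 ± 0.07 and the desaturase gene Scd2 at 0.06 ± 0.07.

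**Figure D3:**
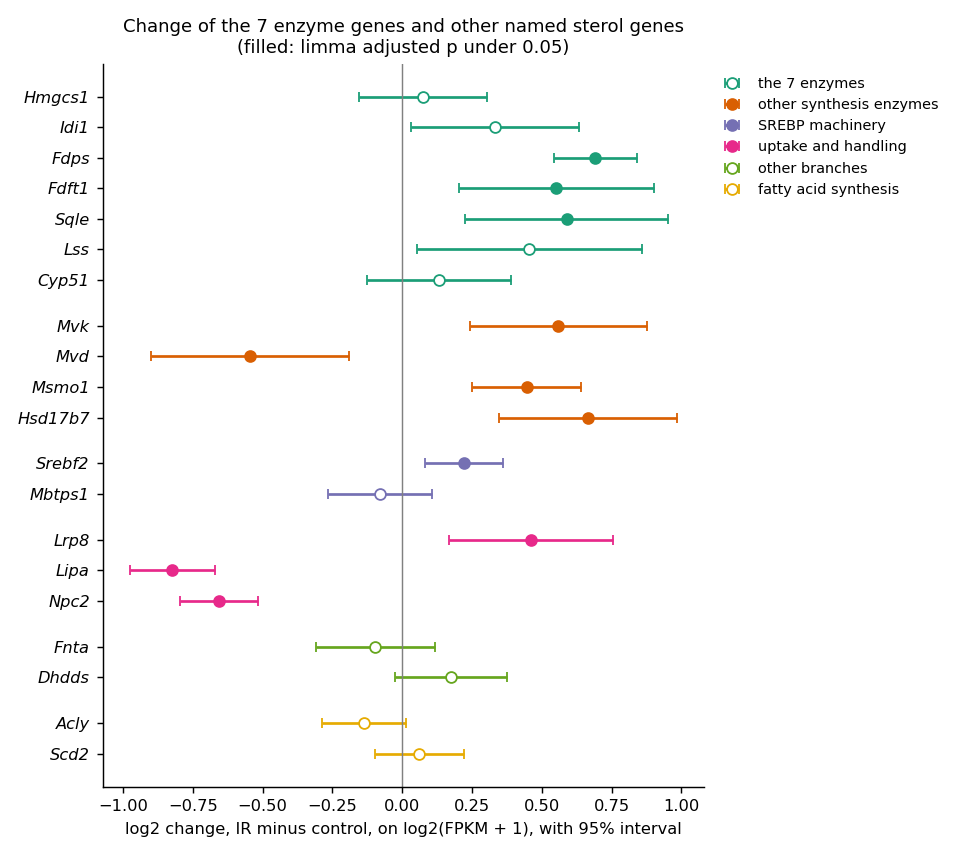
Log2 change, IR minus control on log2(FPKM + 1), of the 7 enzyme genes and of other named sterol and lipid genes, with 95% intervals from the limma fit. Filled points passed an adjusted p of 0.05. Fdps at 0.69 and Hsd17b7 at 0.66 lie clear of 0, Mvd at -0.55 lies on the other side, and the isoprenoid branch and fatty acid genes shown cross 0.

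Levels of other marrow cells' markers moved in the same libraries. Of 11 late neutrophil markers 10 rose. Their summed level was 95984 to 98928 FPKM in IR and 65081 to 69720 FPKM in control libraries. By the means this was 1.44 times the control level, beside 1.49 times for the 7 enzyme genes. Each sum rests on its most abundant genes, S100a8 and S100a9 for the markers and Fdps for the enzymes. Without Fdps the enzyme ratio was 1.28. Log2 changes of single genes ran from 0.20 to 0.66 over these markers and from 0.07 to 0.69 over the enzyme genes. Of 5 neutrophil precursor markers 3 rose, with sums of 6026 to 6104 FPKM in IR and 4769 to 5356 FPKM in control libraries. Among the 5, Mpo and Elane, the most abundant, had log2 changes of 0.06 and 0.06 and did not pass, while the median of the 5 was 0.45. Of 20 cell cycle genes 4 rose and 0 fell, with 9 and 1 at an unadjusted p under 0.05, and their sum was 1495 to 1531 FPKM in IR and 1424 to 1437 FPKM in control libraries. Top2a and Pcna, the most abundant of these, had log2 changes of -0.01 and -0.10, while the median of the 20 was 0.15. None of the neutrophil or cell cycle genes tested was at 0 in any library.

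Other lists went down. Of 9 T cell markers 8 fell, with sums of 189.8 to 200.1 FPKM in IR and 333 to 344 FPKM in control libraries. The most abundant, Cd3g and Lck, fell by 0.98 and 0.63 on the log2 scale. The summed macrophage markers stood at 181 to 194 FPKM in IR and 595 to 625 FPKM in control libraries, and the most abundant, C1qb and Vcam1, fell by 1.76 and 1.55. Of 8 tested B lineage markers 8 fell, of 6 plasmacytoid dendritic cell markers 5 fell, of 8 eosinophil markers 6 fell and of 8 erythroid markers 5 fell. The most abundant of each list, Cd79b and Cd79a, Bst2 and Siglech, Prg2 and Ear1, and Hbb-bs and Hba-a1, were all among those that fell. Igll1 of the B lineage list and Klk1 of the dendritic cell list were at 0 in at least 1 library. The part of any of these cell types in the levels of the 7 enzyme genes was not tested.

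**Figure D4:**
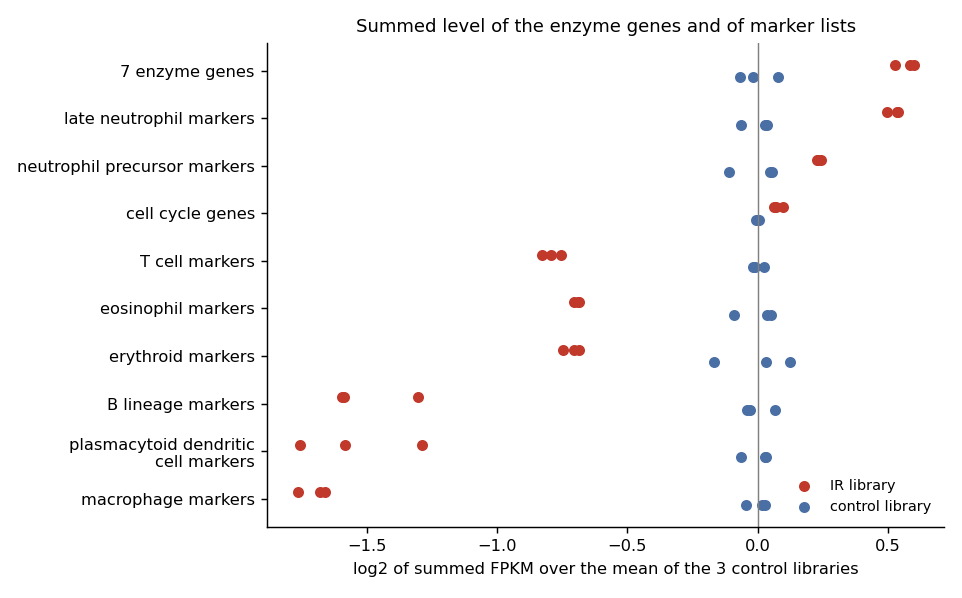
Summed FPKM of the 7 enzyme genes and of each marker list per library, as log2 of the ratio to the mean of the 3 control libraries. Each point is 1 library (IR upper, control lower in each row). The enzyme genes and the late neutrophil markers lie to the right in IR libraries, at mean ratios of 1.49 and 1.44. The T cell and macrophage markers lie to the left. Without Fdps, a sum not drawn, the enzyme ratio is 1.28.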

How the data were processed

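The authors deposited 1 table per library with 1 value per gene, taken here as FPKM from the column totals (451444 to 485365), since their headers give a gene column and a sample column with no unit. The submitters' processing notes list the tools HISAT2, StringTie and fastp and the builds GRCm38 and mm10. Versions, settings and annotation release: not given in the sources used here. RNA came from a low-input column kit, per the labels' protocols.

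Values were tested with limma 3.58.1 in R 4.3.3 (eBayes with a trend) on log2(FPKM + 1), two-sided, IR minus control, over 10666 genes (mean FPKM at or above 1), with Benjamini-Hochberg adjustment over all of them. This scale understates changes of low genes. The procedure was tested on simulated data with 200 changed genes in each of 5 draws. It called 44% of log2 changes of 0.5 and 86.2% of log2 changes of 1, with 4.26% false calls. In these draws a change of 0.5 was thus missed more often than called. The data held 671 genes called higher and 1100 called lower, more than the 200 changed per draw. The share found in the data may therefore differ from that in the draws. A gene that did not pass may still differ. Nothing in the labels says that replicates are different animals. The p-values therefore rest on library-to-library spread alone, which may be technical. Relative depth was taken from genes under 0.1 FPKM, choosing the scaling under which the most gene ratios equalled ratios of integers up to 6 (tolerance 0.001). The 7 genes, the other lists and the rule for named genes were chosen with earlier results of these data known. Named were all 7 genes, every gene that passed in a sterol list (or the 2 with the highest mean where fewer than 2 passed), the 2 most abundant genes of each marker list and the 5 nearest genes. Foxp3, Ctsb and Akap9 were named after their values were seen. Some genes that this rule picks are not reported here. Copies of the genes were searched with blastn 2.17.0 in GENCODE M21 transcripts. Beside the copies described above, Sqle matched Sdccag8 (92.9% over 224 bases) and Vmn2r95 (90.4% over 219 bases). Lss matched 4933411E08Rik (90.2% over 205 bases). Python 3.11.15 with pandas 2.3.3 and matplotlib 3.10.9 made tables and plots.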

Additional observations from a re-analysis of the deposited data

How the results depend on the processing

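The fit was repeated with quantile normalization, no filter, a filter at 5 FPKM, array weights, median-of-ratios scaling, a pseudocount of 0.1, no trend, unadjusted p under 0.05, a replicate block, and each library left out. The 7 genes kept the direction of their change under each of these that could test them, with 0 reversals. Of the 7 genes 3 were called higher; without a filter 1 was, at unadjusted p under 0.05 there were 5, with the replicate block 2, and with a library left out 1 to 2. Of the 15 other enzymes 1 was called lower, Mvd, against 0 without a filter, 0 with median-of-ratios scaling, 0 with quantile normalization, 0 without a trend, and 0 to 1 with a library left out. Over all genes 671 were called higher and 1100 lower, 1292 and 1864 at unadjusted p under 0.05, and 414 to 684 and 709 to 968 with a library left out, the fewest without control replicate 2. The cause was not tested. Deviations of same-numbered libraries correlated at 0.01, -0.04 and -0.02. No shared effect of the replicate number was thus seen, but this cannot show whether the libraries were paired by design. Under the replicate block, which leaves fewer degrees of freedom, Sqle (limma adjusted p = 0.0647), Mvk (0.0505) and Srebf2 (0.0689) lost their calls. Fdft1 (0.0356), Mvd (0.0356) and Lrp8 (0.0353) kept theirs. The reads behind the low values of Hsd17b7, Lss and Fdft1 are unknown, so their counting error could not be given. The log2 change of Hsd17b7 was 0.66 with a pseudocount of 1 and 0.97 with a pseudocount of 0.1.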
